A study of Homo sapiens with 6 samples.

Results

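The gene set described here holds 39 genes that MYC is known to induce, most of them factors of ribosome biogenesis and enzymes of nucleotide, polyamine and energy metabolism. Each gene was found by its symbol, current or former, in the annotation of the array, and its brightest probe set, by the mean of the 6 arrays, stood for it. Of the 39 genes, 34 had a probe set annotated to a single gene, and 33 of these passed the minimum level and were tested, out of 12012 genes tested on the array and 19775 with a probe set. The samples were 3 lines of Burkitt lymphoma, a B-cell lymphoma defined by translocation of MYC: Raji, Namalwa and Ramos. Each line gave 1 array labelled miR26a and 1 labelled empty, so that each label held 3 arrays and each line 2. The labels describe transfected lines in which microRNA expression was switched on with doxycycline (0.5 µg/ml, 72 h), and they list the same treatment for the empty arrays. The miR26a arrays therefore differ from the empty arrays only in the microRNA, as labelled. No source used here says whether a transfected line was a clone or a pool, or that more than 1 culture was grown per line and label, and p-values cover no more than the spread among the arrays at hand.

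MYC is a transcription factor that binds, together with MAX, to DNA elements called E-boxes and raises the transcription of a large group of growth genes. In dividing B cells this programme supplies ribosomes, nucleotides and polyamines, and ribosome assembly in the nucleolus is its best known branch. RNA polymerase I makes the ribosomal RNA precursor there, small nucleolar ribonucleoproteins guide its chemical modification, and separate sets of assembly factors build the small and the large subunit. The title of the study places miR-26a between MYC and EZH2, the methyltransferase of Polycomb repressive complex 2. The arrays show whether the RNAs of this MYC programme differ when miR-26a is induced, and how they differ between the lines.

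The mature sequence of the induced microRNA and the E-box stretches of the genes on which the results turn are given first, because the one defines the treatment and the other the class of promoter. RefSeq lists the same mature miR-26a-5p for MIR26A1 (chr3:37969413-37969434, plus strand, GRCh38.p14) and MIR26A2 (chr12:57824658-57824679, minus strand). The seed, bases 2 to 8, is in capitals.
miR-26a-5p: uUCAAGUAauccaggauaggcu

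The canonical E-box CACGTG, a palindrome that reads the same on both strands, was counted in RefSeq windows of 300 bases, from 250 before to 50 after each annotated start (GRCh38.p14). It was present in 18 of the 33 genes of the set that had a window (54.5%), against 2396 of 27305 genes (8.77%). Among genes with exactly 1 window, each thus searched over the same length, it was present in 12 of 22 genes of the set (54.5%), against 7.28% of 22114 genes. A match is a description of letters and not of binding, and since the genes were listed as MYC-induced this share is no independent result. The stretches below are 30 bases each, on the strand of the gene, with the E-box in capitals. They belong to genes named in the results: those with some of the most negative differences for miR26a minus empty, those that differ between lines and 2 long studied targets of MYC, ODC1 and LDHA.
RRP9 (chr3:51941892-51941921, minus strand, E-box from -5): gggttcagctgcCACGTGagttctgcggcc
MRTO4 (chr1:19251807-19251836, plus strand, E-box from 14): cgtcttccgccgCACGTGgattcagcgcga
NOP2 (chr12:6568242-6568271, minus strand, E-box from 35): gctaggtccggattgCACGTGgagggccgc
SLC19A1 (chr21:45541797-45541826, minus strand, E-box from 32): ttcgcgcccaggCACGTGttgcttcgggac
TERT (chr5:1295214-1295243, minus strand, E-box from -163): gaccgcgcttccCACGTGgcggagggactg
FBL (chr19:39846356-39846385, minus strand, E-box from 6): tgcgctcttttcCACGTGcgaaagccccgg
ODC1, first site (chr2:10448024-10448053, minus strand, E-box from -29): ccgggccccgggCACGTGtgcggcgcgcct
ODC1, second site (chr2:10447990-10448019, minus strand, E-box from 5): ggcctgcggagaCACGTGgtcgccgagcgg
LDHA, first site (chr11:18394366-18394395, plus strand, E-box from -185): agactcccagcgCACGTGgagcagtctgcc
LDHA, second site (chr11:18394464-18394493, plus strand, E-box from -87): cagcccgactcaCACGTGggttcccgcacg

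Among the genes of the set, 2 pairs start back to back and share 1 E-box each. HSPD1 and HSPE1, which encode the mitochondrial chaperonin and its co-chaperonin, start 105 bases apart on chromosome 2, HSPD1 on the minus strand from 197500274 and HSPE1 on the plus strand from 197500379. The whole stretch between the starts (chr2:197500275-197500378, 104 bases, plus strand) holds a single E-box, in capitals.
HSPD1 and HSPE1, between the starts: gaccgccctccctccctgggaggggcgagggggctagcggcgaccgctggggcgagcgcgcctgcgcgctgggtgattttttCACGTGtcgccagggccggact
PPAT and PAICS, which encode enzymes of purine synthesis, start 137 bases apart on chromosome 4, at 56435615 on the minus strand and 56435752 on the plus strand. Their E-box lies just inside PAICS and upstream of PPAT.
PPAT (chr4:56435780-56435809, minus strand, E-box from -182): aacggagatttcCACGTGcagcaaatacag

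**Figure D1:**
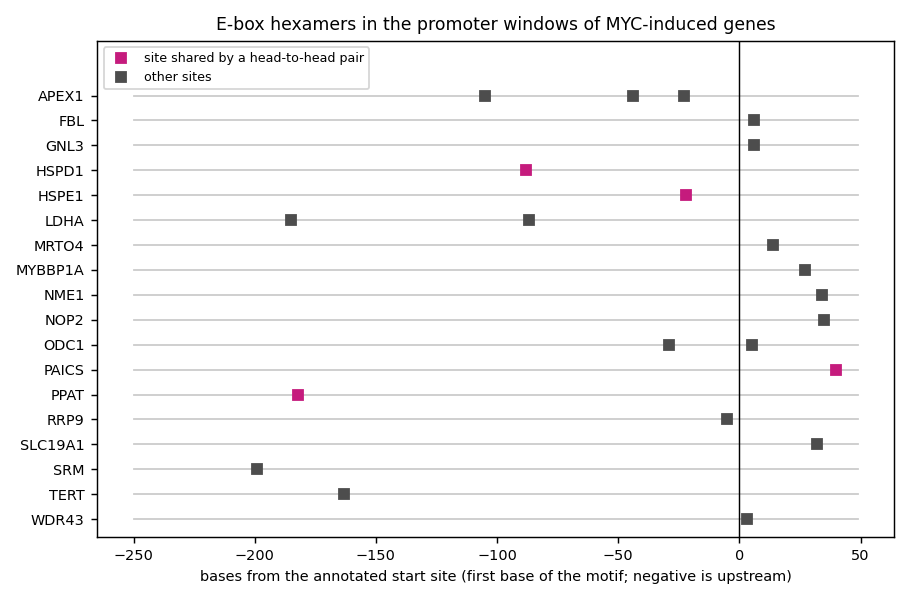
Positions of CACGTG in the promoter windows of the 18 genes of the set that hold it. The x axis is the distance in bases from the annotated start to the first base of the hexamer, grey lines are the 300-base windows, and magenta squares are the sites shared by a head-to-head pair. APEX1 holds sites at -105, -44 and -23, and ODC1 and LDHA hold 2 each.

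All levels below are log2 values on the authors' RMA scale, a normalisation that gives every array the same distribution of probe values, so that a shift of all RNAs together would not show. Fewer cells of a type and less RNA per cell cannot be told apart in bulk RNA. Array medians were 4.36 to 4.44. The Namalwa empty array stood apart in a sign of RNA quality, a gap of 3.58 between its 3′ and 5′ ACTB controls, where the other arrays had 1.80 to 1.98. The 18S controls stood apart on 2 arrays, at 6.68 on Namalwa empty and 8.99 on Ramos empty, against 7.49 to 7.72 on the other 4. The B-cell identity of the lines was plain, since the 6 of 7 B-cell markers with a probe set all had a mean over the 6 arrays above the minimum level (log2 of their summed level 11.8 to 13.0 in miR26a arrays and 11.7 to 13.0 in empty arrays). The mean was also above it for the 5 germinal centre markers with a probe set, of 6 listed, although BACH2 lay under it on the Raji empty array (4.25). Of 8 T and NK cell markers 1 was above it (summed level 6.80 to 7.01 in miR26a arrays and 6.81 to 7.03 in empty arrays), with CD3D, CD3G, CD2, CD8A, NKG7, KLRD1 and GNLY below. Of 4 monocyte markers with a probe set 1 was above it, with CD14, LYZ and S100A9 below. Of 6 fibroblast markers 3 were above it, with COL3A1, LUM and PDGFRA below. Their summed level was 7.43 to 7.86 in miR26a arrays and 7.38 to 7.92 in empty arrays. Of 2 red cell markers with a probe set 1 was above it, with ALAS2 below. EZH2 itself had 7.70, 8.87 and 9.16 in the miR26a arrays of Raji, Namalwa and Ramos, against 8.01, 9.63 and 9.77 in their empty arrays, a mean difference of -0.56 (limma, adjusted p = 0.106). MYC, the regulator of the set, had 10.27, 10.89 and 11.60 in the miR26a arrays of Raji, Namalwa and Ramos, against 10.37, 10.81 and 11.33 in their empty arrays. Its mean difference with miR26a was 0.08 (95% interval -0.17 to 0.32), while between the lines it differed with adjusted p under 0.05 in each pair.

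The MYC-induced genes stayed close to their empty levels when miR-26a was induced. None of the 33 tested genes was called in limma after Benjamini-Hochberg adjustment over all genes tested (threshold 0.05), where the background was also 0.0% lower and 0.0% higher, and none was called under any other setting tried. At an unadjusted p under 0.05, 3 of 33 were lower (9.09%, against 7.33% of all genes) and 0 were higher (against 5.56%). The mean difference lay within 0.25 log2 of 0 for 30 of 33 genes (90.9%, against 86.1% of all genes), and the 95% interval lay within 0.5 log2 of 0 for 30 genes. These intervals bound the size of any change more closely than the missing calls do. The median standard error was 0.105. The smallest adjusted p among the genes was 0.214, and the smallest of any gene on the array was 0.0730.

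The direction of the small differences was uneven. Of the 33 genes, 24 had a mean difference below 0 (72.7%, against 52.8% of all genes), and the median over the set was -0.07, against -0.01 over all genes tested. By line, the median was -0.08 in Raji, -0.08 in Namalwa and -0.04 in Ramos, and 24, 21 and 20 of the 33 genes were lower in the miR26a array of Raji, Namalwa and Ramos. The 9 genes lower in all 3 lines (27.3%, against 19.6% of all genes) were TERT, SLC19A1, MRTO4, NOP2, HSPE1, RRP9, LDHA, HSPD1 and NOP16. RRP12 alone was higher in all 3 (1 of 33, against 15.5% of all genes), and 23 genes had mixed signs. These signs are those of the brightest probe set, and other probe sets of some of these genes, RRP12 and HSPD1 among them, differed in sign. Without the Namalwa pair, which includes the array of lower RNA quality, the median was -0.06 and again 0 genes were called. Whether lines differ in their response could not be tested, since each line gave 1 array per label. The changes in pairs of lines shared a sign in 17 or 18 of the 33 genes (51.5% to 54.5%, against 53.7% to 60.4% of all genes).

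**Figure D2:**
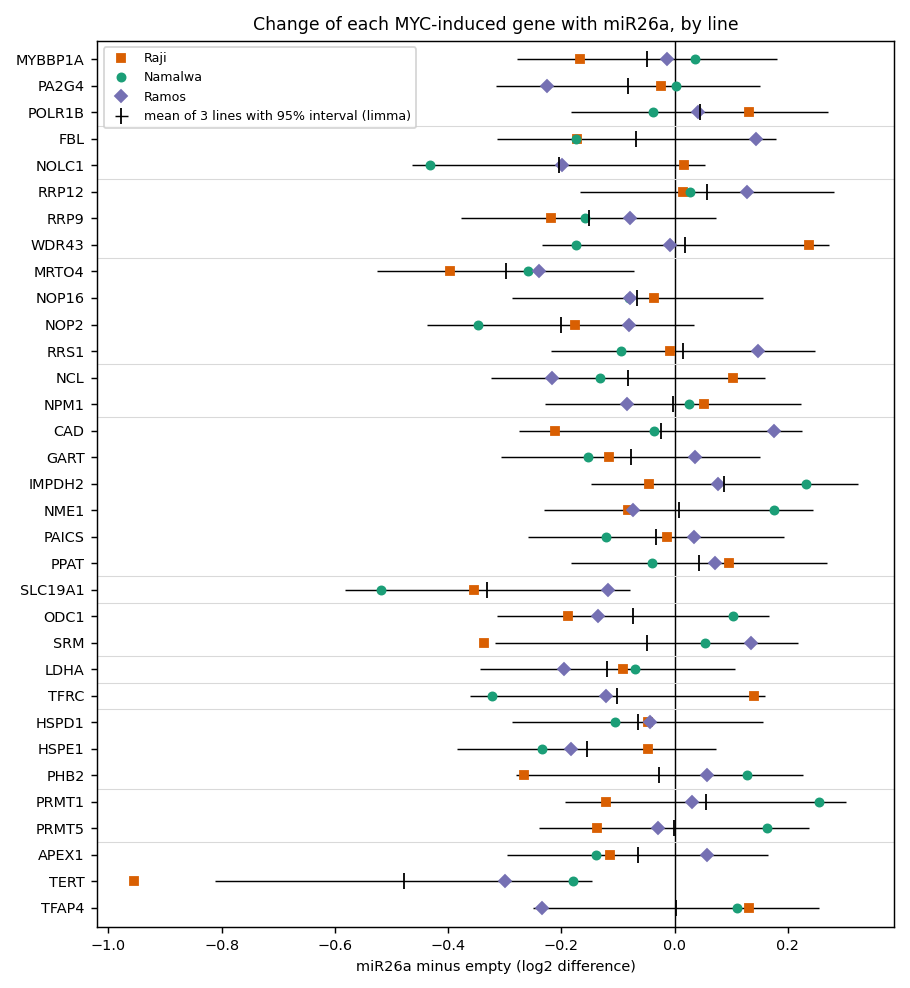
Log2 difference, miR26a minus empty, of each of the 33 tested genes, grouped by role from top to bottom. Coloured symbols are the 3 lines, and black ticks with bars are the limma mean and its 95% interval. The intervals of TERT, SLC19A1 and MRTO4 lie below 0, and those of the other 30 genes include it.

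Between the lines the same genes differed more. In Raji against Namalwa, 7 of 33 were called higher and 5 lower (36.4% in all, against 46.1% of all genes tested, of which 22.8% higher and 23.4% lower). In Raji against Ramos, 4 were higher and 14 lower (54.5%, against 50.5%, of which 26.1% higher and 24.4% lower). In Namalwa against Ramos, 0 were higher and 3 lower (9.09%, against 14.7%, of which 8.09% higher and 6.57% lower). On the brightest probe sets the shares called were thus near or under the background in each pair of lines. With the mean over the probe sets of a gene, 22 of 33 were called for Raji minus Ramos, against 52.4% of all genes. In that setting 16 of 33 were called for Raji minus Namalwa, against 46.9%, and 6 of 33 for Namalwa minus Ramos, against 16.2%. The directions were less even than over all genes in the comparisons with Ramos, and this difference was not tested.

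Levels in Namalwa lay a little below those in Ramos across nearly the whole set. Of the 33 genes, 31 had a lower mean in Namalwa (93.9%, against 49.8% of all genes), with a median difference of -0.29, against 0.00 over all genes. The same count was 30 of 33 in the miR26a arrays alone (median -0.25) and 30 of 33 in the empty arrays alone (median -0.29), so it was present without the Namalwa empty and Ramos empty arrays, which stood apart in their controls. The exceptions were TFRC (0.11) and MYBBP1A (0.01). Only RRP9, FBL and NOP16 were called after adjustment, and a missing call does not place a difference within the error of the fit. The unadjusted confidence intervals of some uncalled genes, PAICS and POLR1B among them, left out 0. Those of other uncalled genes, LDHA and HSPD1 among them, included 0. Raji was below Ramos in 23 genes (69.7%, against 45.2% of all genes, median -0.19) and below Namalwa in 15 (45.5%, against 45.3%, median 0.05). Ramos had the highest mean of the 3 lines in 22 genes, Raji in 10 and Namalwa in 1. MYC RNA was 10.32 in Raji, 10.85 in Namalwa and 11.46 in Ramos (line means over 2 arrays). Its differences were -0.53 for Raji minus Namalwa (limma, adjusted p = 0.00955), -1.14 for Raji minus Ramos (8.6e-05) and -0.61 for Namalwa minus Ramos (0.0148). Whether the MYC level has a part in the levels of the set was not tested.

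**Figure D3:**
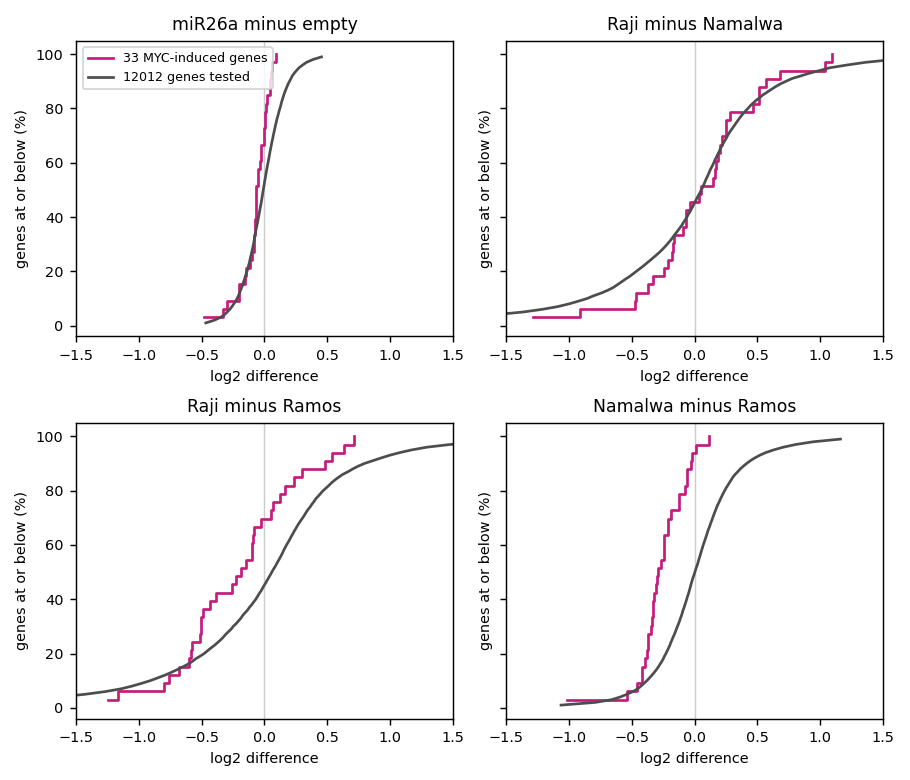
Cumulative share of genes (y axis, percent) at or below each log2 difference (x axis) for the 33 genes of the set (magenta) and the 12012 genes tested (grey), in the 4 comparisons. For Namalwa minus Ramos the magenta curve lies left of the grey one, with 93.9% of the set below 0 against 49.8% of all genes; for miR26a minus empty the set is narrow around a median of -0.07.

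The first group by role acts on transcription of ribosomal RNA. POLR1B, the second largest subunit of RNA polymerase I, had 8.71, 8.80 and 9.26 in the miR26a arrays of Raji, Namalwa and Ramos, against 8.58, 8.84 and 9.22 in their empty arrays. Both Ramos arrays were above all others, and the difference of Raji minus Ramos was -0.60 (95% interval -0.88 to -0.32, adjusted p = 0.00285), while for Namalwa minus Ramos it was -0.42 (adjusted p = 0.0503). MYBBP1A, a nucleolar protein that binds MYB, had 7.42, 7.06 and 7.02 in the miR26a arrays, against 7.59, 7.02 and 7.04 in the empty arrays. It was higher in Raji than in Namalwa by 0.47 (adjusted p = 0.0127) and than in Ramos by 0.48 (adjusted p = 0.0103), and both Raji arrays lay above all others. These calls needed single arrays: the first ended when Namalwa empty (0.40, adjusted p = 0.0937) or Raji empty (0.38, adjusted p = 0.0948) was left out, and the second when Raji empty (0.39, adjusted p = 0.0785), Ramos miR26a (0.50, adjusted p = 0.0626) or Ramos empty (0.45, adjusted p = 0.0993) was. PA2G4, a growth-regulated nucleolar protein, was called in no pair of lines, and its mean difference with miR26a was -0.08. The mean difference with miR26a was 0.04 for POLR1B and -0.05 for MYBBP1A.

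Small nucleolar ribonucleoproteins were represented by FBL and NOLC1, because NOP56 and DKC1 had only probe sets shared with other genes. FBL, the methyltransferase of the box C/D particles, had 10.84, 10.88 and 11.58 in the miR26a arrays of Raji, Namalwa and Ramos, against 11.01, 11.05 and 11.43 in their empty arrays. The Ramos arrays stood clear of the rest. FBL was lower than in Ramos both in Raji, by -0.57 (adjusted p = 0.00583), and in Namalwa, by -0.54 (adjusted p = 0.0260). Without the Ramos miR26a array neither was called (-0.42, adjusted p = 0.122, and -0.38, adjusted p = 0.320), nor was the second without the Namalwa miR26a array (-0.46, adjusted p = 0.157) or the Namalwa empty array (-0.62, adjusted p = 0.0730). NOLC1, a phosphoprotein that binds these particles in the nucleolus and Cajal bodies, had 10.31, 11.00 and 11.46 in the miR26a arrays, against 10.30, 11.44 and 11.65 in the empty arrays. Its Raji level was the lowest by a wide margin: -0.91 against Namalwa (adjusted p = 0.000553) and -1.25 against Ramos (95% interval -1.57 to -0.93, adjusted p = 6.6e-05), a 2.38-fold difference. A pair of further NOLC1 probe sets had the same order of lines, with means of 8.34, 9.05 and 9.26 on one and 7.03, 7.95 and 8.49 on the other in Raji, Namalwa and Ramos. With miR26a the main probe set of NOLC1 moved by -0.20 (95% interval -0.46 to 0.05) and the other probe sets by 0.03 and 0.24, so its small difference had no settled sign.

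Of the small subunit factors, RRP9 separated the lines most. RRP9, a protein of the U3 particle that starts cleavage of the precursor, had 6.30, 5.82 and 6.87 in the miR26a arrays of Raji, Namalwa and Ramos, against 6.51, 5.97 and 6.95 in their empty arrays. The lines did not overlap. Raji exceeded Namalwa by 0.51 (adjusted p = 0.00721) and was below Ramos by -0.51 (adjusted p = 0.00694), and Namalwa was below Ramos by -1.02 (95% interval -1.29 to -0.74, adjusted p = 0.000678), a 2.02-fold difference. Within each line RRP9 was a little lower in the miR26a array, by -0.22, -0.16 and -0.08 in Raji, Namalwa and Ramos (mean -0.15, 95% interval -0.38 to 0.07, adjusted p = 0.574). RRP12, which takes part in maturation and export of the subunits, had 6.89, 7.06 and 7.45 in the miR26a arrays, against 6.87, 7.03 and 7.32 in the empty arrays. It was lower in Raji than in Ramos by -0.51 (adjusted p = 0.00676), and its mean difference with miR26a was 0.06 (95% interval -0.17 to 0.28). Dimmer RRP12 probe sets gave -0.10, -0.03 and -0.08 on one and -0.11, -0.03 and -0.27 on another in Raji, Namalwa and Ramos. A further one gave 0.43, -0.19 and 0.22, so the sign with miR26a was not settled. WDR43, a component of the small subunit processome, was called lower in Raji than in Ramos (-0.44, adjusted p = 0.0247).

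The large subunit assembly factors held 3 of the 9 genes that were lower with miR26a in every line. MRTO4, which occupies the place of the stalk protein P0 on the growing subunit, had 9.39, 9.17 and 9.55 in the miR26a arrays of Raji, Namalwa and Ramos, against 9.78, 9.43 and 9.79 in their empty arrays. The differences of -0.40, -0.26 and -0.24 averaged -0.30 (95% interval -0.53 to -0.07, adjusted p = 0.261 in limma). A second MRTO4 probe set gave -0.43, -0.29 and -0.10 in the same lines. NOP2, a nucleolar RNA methyltransferase also known as a proliferation antigen, had 8.71, 8.41 and 8.78 in the miR26a arrays, against 8.89, 8.76 and 8.87 in the empty arrays (mean -0.20, 95% interval -0.44 to 0.03). The miR26a and empty arrays of NOP2 overlapped across lines, as Ramos miR26a lay above Namalwa empty.

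NOP16, the third of these genes, had 10.78, 9.66 and 10.12 in the miR26a arrays of Raji, Namalwa and Ramos, against 10.81, 9.74 and 10.20 in their empty arrays. Its differences with miR26a were -0.04, -0.08 and -0.08, and a second bright probe set gave 0.11, 0.02 and -0.03 in the same lines, so their sign was not settled. Its lines were far apart. The difference was 1.09 for Raji minus Namalwa (95% interval 0.82 to 1.36, adjusted p = 6.7e-05), a 2.13-fold difference, 0.63 for Raji minus Ramos (adjusted p = 0.00180) and -0.46 for Namalwa minus Ramos (adjusted p = 0.0331). The second bright probe set had the same order, with means of 9.70, 8.56 and 9.20 in Raji, Namalwa and Ramos. The other NOP16 probe sets, both dim, had their highest means in Namalwa, and averaging all 4 left -0.00 for Namalwa minus Ramos (adjusted p = 0.984, with a range of 0.00946 to 0.984 over all settings). That last call was also lost without any 1 of the 4 Namalwa and Ramos arrays, at adjusted p of 0.120 to 0.254 and differences of -0.45 to -0.47. RRS1, which brings the 5S particle to the large subunit in yeast, had 9.09, 8.54 and 9.01 in the miR26a arrays, against 9.10, 8.63 and 8.86 in the empty arrays. It was higher in Raji than in Namalwa by 0.51 (adjusted p = 0.00854), and by 0.43 without the Namalwa miR26a array, where it was not called (adjusted p = 0.0699). PPAN and BOP1 had only probe sets shared with other genes, and GNL3 had no probe set under its name, so these 3 assembly factors were not analysed here.

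NCL and NPM1 encode abundant nucleolar histone chaperones. NPM1 had 13.30, 13.10 and 13.10 in the miR26a arrays of Raji, Namalwa and Ramos, against 13.24, 13.08 and 13.19 in their empty arrays (mean -0.00, 95% interval -0.23 to 0.22), so its groups overlapped. NCL had 11.45, 11.57 and 11.78 in the miR26a arrays, against 11.35, 11.71 and 11.995 in the empty arrays, with a mean difference of -0.08 (95% interval -0.32 to 0.16). Between the lines NCL was called only for Raji minus Ramos (-0.49, adjusted p = 0.0118).

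**Figure D4:**
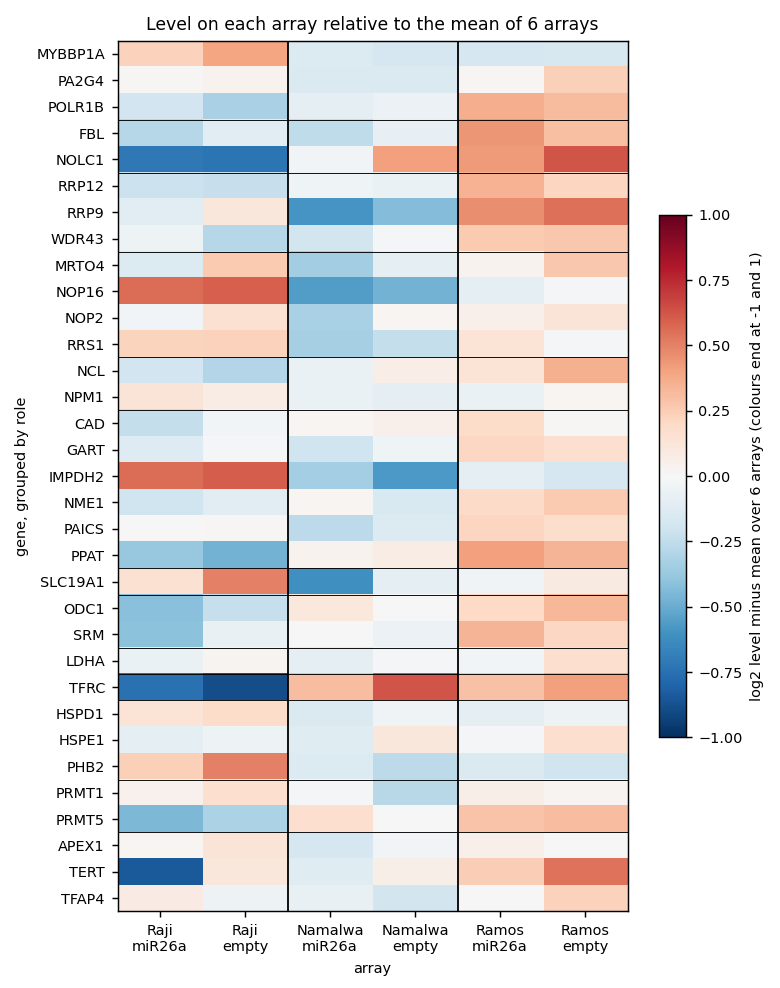
Level of each tested gene on each array, as log2 minus the mean of the 6 arrays (colour, ends at -1 and 1), with miR26a left of empty in each line and genes grouped by role. Columns of the same line resemble each other: NOLC1, TFRC and PPAT are low on both Raji arrays, and NOP16 and IMPDH2 are high on both.

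Nucleotide synthesis was represented by 6 genes, and on its brightest probe set each of them had mixed signs across the lines with miR26a. Some other probe sets had the same sign throughout. In Raji, Namalwa and Ramos these gave -0.07, -0.28 and -0.23 for PPAT and -0.28, -0.05 and -0.09 for PAICS. A GART probe set gave 0.19, 0.28 and 0.07 in the same lines, so these signs were not settled. IMPDH2, the rate-limiting enzyme of guanine nucleotide synthesis, had 11.32, 10.42 and 10.67 in the miR26a arrays of Raji, Namalwa and Ramos, against 11.37, 10.19 and 10.59 in their empty arrays. Both Raji arrays were above the rest, by 1.04 against Namalwa (95% interval 0.75 to 1.33, adjusted p = 0.000138) and by 0.71 against Ramos (adjusted p = 0.00132). PPAT, which commits phosphoribosyl pyrophosphate to purine synthesis, had 8.65, 9.06 and 9.43 in the miR26a arrays, against 8.55, 9.10 and 9.36 in the empty arrays. It ran the other way, being lower in Raji by -0.48 against Namalwa (adjusted p = 0.0102) and by -0.80 against Ramos (adjusted p = 0.000477). The first of these ended when Namalwa empty (-0.42, adjusted p = 0.0789) or Raji empty (-0.44, adjusted p = 0.0556) was left out. PAICS, which shares the promoter region of PPAT and encodes a later enzyme of the pathway, had 10.83, 10.57 and 11.04 in the miR26a arrays, against 10.84, 10.69 and 11.01 in the empty arrays. On these probe sets PAICS had 0.21 for Raji minus Namalwa (adjusted p = 0.205), opposite in sign to PPAT, and -0.19 for Raji minus Ramos (adjusted p = 0.226). A second bright PAICS probe set had means of 10.47, 10.48 and 10.49 in Raji, Namalwa and Ramos. The opposite sign was thus not settled, and whether the line patterns of PAICS and PPAT differ was not tested. GART and CAD, multifunctional enzymes of purine and pyrimidine synthesis, were called in no pair of lines on their brightest probe sets. For GART some other probe sets had wider gaps, such as means of 8.57, 9.12 and 9.55 in Raji, Namalwa and Ramos. Each GART probe set above the minimum had its highest mean in Ramos. NME1, a nucleoside diphosphate kinase, was lower in Raji than in Ramos (-0.38, adjusted p = 0.0331).

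SLC19A1, the reduced folate carrier, had the second most negative difference with miR26a in the set. It had 7.86, 7.10 and 7.68 in the miR26a arrays of Raji, Namalwa and Ramos, against 8.22, 7.62 and 7.80 in their empty arrays. The differences of -0.36, -0.52 and -0.12 averaged -0.33 (95% interval -0.58 to -0.08, adjusted p = 0.261). The 3 other probe sets of SLC19A1 above the minimum also had a mean difference below 0, of -0.13, -0.21 and -0.15. Without the Namalwa pair the mean was -0.24. The carrier was higher in Raji than in Namalwa by 0.68 (adjusted p = 0.00280). SHMT1, the cytosolic serine hydroxymethyltransferase, had 2.96, 3.17 and 3.18 in the miR26a arrays, against 3.56, 3.23 and 3.13 in the empty arrays, under the minimum level of 4.42 on every array, and was not tested.

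Both polyamine enzymes were lower in Raji than in Ramos. ODC1, the rate-limiting enzyme of polyamine synthesis, had 11.75, 12.27 and 12.37 in the miR26a arrays of Raji, Namalwa and Ramos, against 11.94, 12.17 and 12.50 in their empty arrays, so that both Raji arrays lay below the other 4. Its difference was -0.59 for Raji minus Ramos (adjusted p = 0.00432) and -0.38 for Raji minus Namalwa (adjusted p = 0.0401), and the second call was lost in 8 of 14 other settings. Among these were the fits without the Raji miR26a array (-0.29, adjusted p = 0.196), the Namalwa miR26a array (-0.24, adjusted p = 0.268) and either Ramos array (-0.38, adjusted p = 0.0612). SRM, spermidine synthase, had 9.28, 9.68 and 10.03 in the miR26a arrays, against 9.61, 9.63 and 9.89 in the empty arrays, with -0.51 for Raji minus Ramos (adjusted p = 0.0153). The mean difference with miR26a was -0.07 for ODC1 and -0.05 for SRM, each with mixed signs. LDHA, which turns pyruvate into lactate, had 12.27, 12.25 and 12.31 in the miR26a arrays, against 12.36, 12.32 and 12.50 in the empty arrays. It was lower with miR26a in each line, by no more than 0.19 in size (mean -0.12, 95% interval -0.34 to 0.11), and it was called in no pair of lines.

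TFRC, the transferrin receptor through which cells take up iron, showed the widest line difference of the set. It had 10.16, 11.21 and 11.20 in the miR26a arrays of Raji, Namalwa and Ramos, against 10.02, 11.53 and 11.32 in their empty arrays. Both Raji arrays were below the other 4 by more than 1 log2, with -1.29 for Raji minus Namalwa (95% interval -1.61 to -0.97, adjusted p = 6.6e-05), a 2.44-fold difference, and -1.17 for Raji minus Ramos (adjusted p = 0.000106). The second bright probe set had means of 9.72, 10.85 and 10.91 in the 3 lines, the low Raji level included. With miR26a TFRC had a mean difference of -0.10 and mixed signs.

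In mitochondria, the head-to-head pair HSPD1 and HSPE1 was lower in each miR26a array by small amounts on the brightest probe sets. HSPD1 had 13.30, 13.02 and 13.07 in the miR26a arrays of Raji, Namalwa and Ramos, against 13.35, 13.13 and 13.11 in their empty arrays (mean -0.07, 95% interval -0.29 to 0.16). Other HSPD1 probe sets above the minimum gave 0.00, 0.13 and 0.15 in Raji, so the sign in that line was not settled. Their mean differences over the lines were -0.06, -0.10 and -0.13. HSPE1 had 11.21, 11.19 and 11.28 in the miR26a arrays, against 11.25, 11.42 and 11.47 in the empty arrays (mean -0.16, 95% interval -0.38 to 0.07). On the brightest probe sets neither gene was called in a pair of lines. Dimmer HSPD1 probe sets had wider gaps, with means of 8.02, 7.08 and 7.57 in Raji, Namalwa and Ramos, and of 6.62, 5.79 and 6.10. PHB2, a prohibitin of the inner membrane, had 11.68, 11.31 and 11.30 in the miR26a arrays, against 11.94, 11.18 and 11.24 in the empty arrays. It was higher in Raji by 0.57 against Namalwa (adjusted p = 0.00769) and by 0.54 against Ramos (adjusted p = 0.00915). Without the Raji empty array these were 0.39 (adjusted p = 0.0847) and 0.36 (adjusted p = 0.100). Leaving out Namalwa empty also ended the first (0.45, adjusted p = 0.0819), and leaving out Ramos empty the second (0.48, adjusted p = 0.0887).

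The set holds 2 arginine methyltransferases. PRMT5, which makes symmetric dimethylarginine on histones and splicing proteins, had 9.17, 9.79 and 9.91 in the miR26a arrays of Raji, Namalwa and Ramos, against 9.31, 9.63 and 9.94 in their empty arrays. Both Raji arrays were the lowest, by -0.47 against Namalwa (adjusted p = 0.0147) and -0.68 against Ramos (95% interval -0.97 to -0.39, adjusted p = 0.00185). Leaving out Raji miR26a (-0.37, adjusted p = 0.0980) or Namalwa miR26a (-0.35, adjusted p = 0.126) ended the first of these calls. PRMT1, which makes the asymmetric mark, had 10.06, 9.99 and 10.07 in the miR26a arrays, against 10.18, 9.74 and 10.04 in the empty arrays, and was called in no pair of lines. The mean difference with miR26a was -0.00 for PRMT5 (95% interval -0.24 to 0.24) and 0.05 for PRMT1.

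TERT, the catalytic subunit of telomerase, had the largest difference with miR26a in the set, and 1 array set its size. It had 4.42, 5.15 and 5.51 in the miR26a arrays of Raji, Namalwa and Ramos, against 5.38, 5.33 and 5.81 in their empty arrays, and the Raji miR26a value lay at the minimum level. The differences of -0.96, -0.18 and -0.30 averaged -0.48 (95% interval -0.81 to -0.15, adjusted p = 0.214), a 1.39-fold difference, and -0.24 without the Raji pair. A second, dimmer TERT probe set gave -0.14, -0.54 and -0.14. TERT was called lower in Raji than in Ramos (-0.76, adjusted p = 0.00657). Without the Raji miR26a array that difference was -0.40 and was no longer called (adjusted p = 0.0662, with a range of 8.76e-05 to 0.216 over all settings). APEX1, the endonuclease of base excision repair, and TFAP4, an E-box binding transcription factor, had mean differences of -0.07 and 0.00 with miR26a and were called in no pair of lines.

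The genes with and without the E-box are given side by side, with no test. The 17 tested genes with CACGTG in a window had a median difference of -0.07 with miR26a, against -0.03 for the 11 with a window and no match. Namalwa was below Ramos in 16 of these 17 genes (median -0.30) and in 10 of the 11 without (median -0.21).

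Genes of the same pathways outside the set give the surroundings of these values, and no gene in them passed the adjusted threshold of 0.05 with miR26a. Of 15 tested genes of the RNA polymerase I machinery, 4 were lower in all 3 lines and 1 was higher (median -0.02). RRN3, the initiation factor that brings the polymerase to its promoter, had 8.23, 8.39 and 8.90 in the miR26a arrays of Raji, Namalwa and Ramos, against 7.72, 8.16 and 8.60 in their empty arrays (mean 0.35, adjusted p = 0.203). TCOF1, the treacle protein of the same compartment, ran the other way (-0.25, adjusted p = 0.325). Of 12 genes for snoRNP proteins and their assembly, 5 were lower in all 3 lines and 0 higher (median -0.08), with NUFIP1 at -0.28 and WRAP53 at -0.24. Among 45 genes of the small subunit processome 15 were lower in all 3 lines and 1 higher (median -0.04), with UTP11 at -0.30 and UTP18 at -0.23. Of 44 large subunit assembly factors 18 were lower in all 3 and 1 higher (median -0.09), with GNL2 at -0.32, DDX55 at -0.28 and DDX21 at -0.25. The median of the MYC-induced set, -0.07, lies within the range of these 4 lists.

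Larger differences stood in pathways that serve DNA synthesis. Of 20 further genes of nucleotide and one-carbon metabolism, 13 were lower in all 3 lines and 0 higher, 9 had an unadjusted p under 0.05, and the median was -0.24. PRPS2, which makes phosphoribosyl pyrophosphate, was at -0.52, and RRM1 and RRM2, the subunits of ribonucleotide reductase, were at -0.38 and -0.37. Of 20 genes of G1/S transition and replication, 19 were lower in all 3 lines and 16 had an unadjusted p under 0.05 (median -0.38). CDC6, which licenses replication origins, had 7.52, 6.66 and 6.64 in the miR26a arrays of Raji, Namalwa and Ramos, against 8.08, 7.56 and 7.37 in their empty arrays (mean -0.73, adjusted p = 0.0730). Among 6 tested genes that MYC represses 0 were lower in all 3 lines and 3 were higher (median 0.20), with TXNIP at 0.61 (adjusted p = 0.0730) and CDKN1A at 0.47. The MYC-induced set, at a median of -0.07, lay nearer to all genes than these 3 lists did, and no test of the distance was made.

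**Figure D5:**
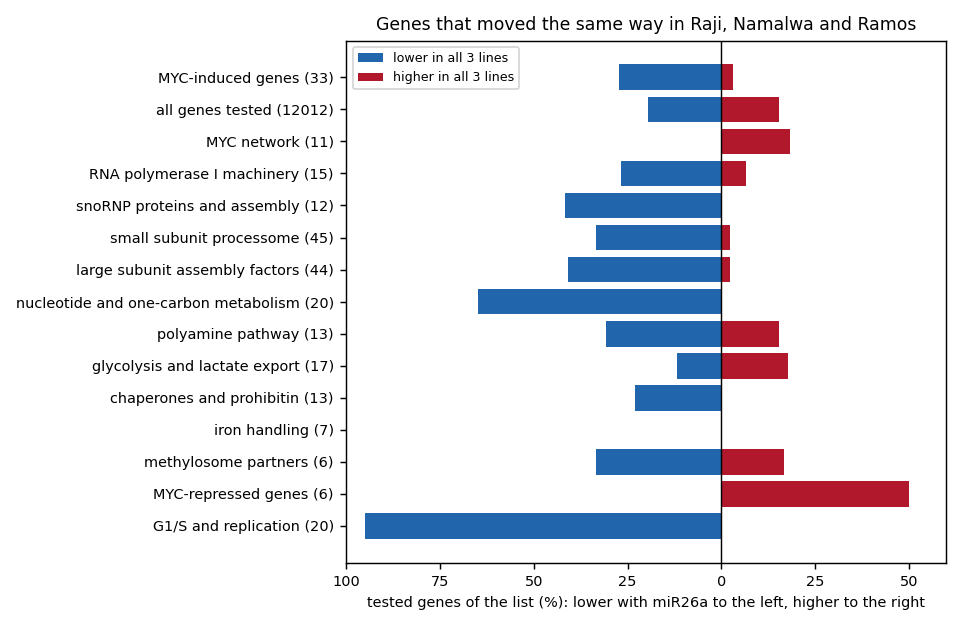
Share of the tested genes of each list (number in brackets) that were lower (blue, left) or higher (red, right) with miR26a in all 3 lines, as percent. The MYC-induced set has 27.3% lower, against 19.6% of all genes; in the list of G1/S and replication genes 19 of 20 were lower.

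The remaining lists were mixed. Of 13 polyamine pathway genes 4 were lower in all 3 lines and 2 higher (median -0.04). EIF5A, the translation factor modified from spermidine, was at 0.58, which rested on Namalwa (1.38, against 0.20 in Raji and 0.15 in Ramos). Of 17 glycolysis and lactate export genes 2 were lower and 3 higher (median 0.00), and of 13 chaperones and prohibitins 3 were lower and 0 higher (median -0.07). Iron handling genes had 0 of 7 with one sign in all lines (median 0.04). Of 6 genes for PRMT5 partners and further arginine methyltransferases 2 were lower and 1 higher, with WDR77, the PRMT5 cofactor, at 0.32 and COPRS, which couples PRMT5 to histones, at -0.30. MYC and its network partners had 0 of 11 lower and 2 higher in all lines (median 0.11).

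The lower level in Namalwa than in Ramos extended to ribosome assembly genes outside the set and to most of the other lists. Means were lower in Namalwa for 41 of 44 large subunit factors (median -0.29), 40 of 45 small subunit processome genes (median -0.34), 13 of 15 genes of the RNA polymerase I machinery (median -0.13) and 10 of 12 snoRNP genes (median -0.20). It held for 13 of 13 chaperones and prohibitins (median -0.16) and for 14 of 20 genes of nucleotide and one-carbon metabolism. Namalwa was also lower in 6 of 6 PRMT5 partners and further arginine methyltransferases, 6 of 7 iron handling genes and 13 of 17 glycolysis and lactate export genes. The same held for 8 of 13 polyamine pathway genes and for 7 of 11 of MYC and its network partners. By contrast 8 of 20 G1/S and replication genes (median 0.05) and 2 of 6 MYC-repressed genes (median 0.11) were lower in Namalwa. Over all genes tested the share was 49.8%. These genes come from the same 4 arrays, so the lists are not independent of each other.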

How the data were processed

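RNA was measured on Affymetrix arrays of the U133 Plus design. The authors deposited log2 intensities made with RMA, per the labels' design text. The submitters' processing notes list RMA and GCOS and give no version of either. A filter on variation is mentioned in that text, but the table here has 54675 probe sets, and nothing was normalised again. Of these, 62 were controls, 41091 carried 1 gene symbol, 1801 several (not used) and 11721 none. For 41037 of those with 1 symbol the Entrez ID was found in RefSeq (GRCh38.p14), and the RefSeq symbol was used. Genes were tested where the mean of their brightest probe set reached 4.42, the median of non-control probe sets. No detection calls were used, and the number of arrays limits the precision.

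limma (3.58.1, R 4.3.3) was fitted to all 6 arrays with line and label as terms, and its p-values had a Benjamini-Hochberg adjustment over 12012 genes (threshold 0.05). The line pairs the arrays by its label. Deviations from the label means correlated within lines at 0.950 in Raji, 0.861 in Namalwa and 0.917 in Ramos. The fit was tested on simulated data. The genes, lists and comparisons were chosen with earlier results of these data known. Genes named with all values are those with the smallest p among those of one sign in 3 lines, up to 8 per direction with the largest called difference between lines, the head-to-head pairs and TERT. Others (CAD, NPM1, NCL, SRM, RRS1, LDHA and further examples) were given for their roles, after their values were seen. Of the 33 tested genes, 17 had over 1 probe set above the minimum, and for 9 of these the probe sets differed in sign with miR26a. Alternatives were other scaling, level minimum, probe set rule, spread model, threshold and block, and leaving out arrays or lines.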

Additional observations from a re-analysis of the deposited data

How the results depend on the processing

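For miR26a minus empty, 0 genes of the set were called under each of the 12 other settings, including the fit with no replicate block (0) and the line as a random replicate block (0), and the median change ran from -0.07 to -0.04. Over all genes the share called in those settings was at most 1.69%. All 119 values of the 10 genes named for miR26a minus empty kept their sign. These genes were picked for the same sign in all 3 lines. Leaving out a line or changing the spread model could thus not alter the sign, and the count is no evidence of stability. Between lines, no value of a named gene changed sign. Without moderation of the spread, which leaves 2 residual degrees of freedom, the genes called numbered 1 for Raji minus Namalwa (12 in the report), 2 for Raji minus Ramos (18) and 0 for Namalwa minus Ramos (3). The shares over all genes fell too, to 4.08%, 8.23% and 0.0%, from 46.1%, 50.5% and 14.7% in the report. For Namalwa minus Ramos 7 were called at an adjusted p of 0.1, 5 with the minimum at the 75th percentile (TERT lies under it and has no value there), 6 with the mean over probe sets and 6 with an intensity trend and robust prior. The shares over all genes in these settings were 20.8%, 18.9%, 16.2% and 16.5%. With the mean over probe sets, 16 were called for Raji minus Namalwa and 22 for Raji minus Ramos, against 46.9% and 52.4% of all genes. Leaving out 1 array gave 9 to 11 calls for Raji minus Namalwa, 11 to 18 for Raji minus Ramos (11 without the Ramos miR26a array) and 1 to 6 for Namalwa minus Ramos (1 without either Namalwa array or the Ramos miR26a array, 6 without either Raji array). A line left with 1 array was assumed to vary like the others. The share called over all genes also changed with the array left out, so these counts do not describe the set alone. Of the 3 calls for Namalwa minus Ramos, NOP16 was lost in 7 settings, FBL in 4 and RRP9 in 1 of 14.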
